A study of Mus musculus with 6 samples.

Results

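The clustered protocadherins of the mouse cerebrum were examined in 3 wild-type (WT) and 3 Sgo1-/+ mice, the latter carrying 1 functional copy of the gene for Shugoshin-1. The members were chosen by name, as rows whose symbol begins with Pcdha, Pcdhb or Pcdhg followed by an isoform code, and 24 of 38087 gene rows fitted this rule. These were 1 row for the alpha cluster, 22 for the beta cluster and 1 for the gamma cluster. All 6 mice were C57BL6 animals of 24 months. The authors give the tissue as cerebrum with cortex and hippocampus, and state that olfactory bulb, cerebellum and medulla were left out. Each group had 1 male (WT replicate 1 and Sgo1-/+ replicate 2) and 2 females. WT libraries were sequenced in run 258 and Sgo1-/+ libraries in run 259, so that genotype and run cannot be told apart.

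Clustered protocadherins are cadherin-like proteins of the cell surface that are best known in neurons. Single neurons use different combinations of them, and matching combinations on neighbouring membranes let a neuron tell its own branches from those of other neurons. In the alpha and gamma clusters, each isoform joins its own variable first exon to constant exons shared by the whole cluster, whereas each beta gene is a single exon. CTCF and cohesin, the ring complex that Shugoshin-1 protects in mitosis, are known to link a chosen promoter to its enhancer.

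The form of the rows sets what can be read from them. The alpha row, listed as Pcdha10 (ENSMUSG00000007440), covers chr18:36930285-37187657 on the plus strand of mm10. It holds the first exons of all 14 alpha genes of the GENCODE M21 annotation. The gamma row, listed as Pcdhga3 (ENSMUSG00000023036), covers chr18:37674335-37841873, also on the plus strand, and holds the first exons of 20 of 22 gamma genes. The first exons of Pcdhga1 and Pcdhga2 lie outside it and under no other row. A median of 60.0% of the 50-base stretches of an alpha transcript, and 45.1% for gamma, also occurred in another gene of the same cluster. The alpha and gamma values are therefore cluster totals, and no single alpha or gamma isoform, the C-type isoforms included, has a value here.

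The 22 beta genes lie between the 2 cluster rows, from Pcdhb1 at chr18:37264998-37267454 to Pcdhb22 at chr18:37518353-37521419. All 22 have a single exon in the annotation. They shared few stretches of 50 bases, which are shorter than a read: between 0.0% (Pcdhb1) and 11.99% (Pcdhb12) of the 50-base stretches of a beta transcript also occurred in another clustered protocadherin. Of the 132 beta values, 22 were whole numbers to within 0.001, and the others carried apportioned reads. This is no trait of the beta genes, since 83.3% of their values were not whole, against 89.7% of values over 3 in all tested genes. The row of Pcdhga3 overlaps the antisense row AC020971.1, whose estimated counts of 150.4 to 208 were at most 2.91% of it. The row of Pcdha10 overlaps the antisense row Gm10545, at most 2.41% of it. Whether counting used strand is not given in the sources used here, so these reads may be split between the rows.

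Total estimated counts were 11123917 to 12505561 per library, and levels are given as TMM-normalized counts, that is, estimated counts scaled by edgeR to a common library size. WT replicate 1 stood apart from the other libraries. Its mean correlation with them across genes was 0.932 on the log2 scale, against 0.964 to 0.968 for the others. The summed count of 10 cortex markers was 4982 in WT replicate 1, whereas the other 5 libraries ranged from 16584 to 20216, and 9 of the 10 were lowest there. The sum of 11 cerebellar granule cell markers was 21778 in WT replicate 1 and 3133 to 4546 elsewhere, with 10 of 11 highest there, while Gabra6 and Fat2 were at 0 in at least 1 other library. Of 10 Purkinje cell markers 9 were highest in WT replicate 1, with sums of 47144 against 17309 to 22450, and of 13 brain stem markers 12 were highest there, with sums of 3346 against 551.2 to 738.4, while 9 of the 13 were at 0 in at least 1 other library. These values of WT replicate 1 differ from what the stated tissue, without cerebellum and medulla, would lead a reader to assume. Whether that library holds such tissue was not tested. A list of 10 general neuron markers summed to 94083 in WT replicate 1 and 86821 to 113633 elsewhere, but its members went both ways, with 3 lowest and 5 highest in WT replicate 1. Syt1 had 5380 there and 18497 to 23343 elsewhere, and Nefh had 5426 against 745.6 to 1537, both chosen after their values were seen. The fold changes of the clusters and the medians of the gene lists are therefore given with and without WT replicate 1. For the lists above, the median log2 fold changes with all libraries, and then without it, were -1.88 and -0.01 for granule cells and -0.82 and 0.02 for Purkinje cells. They were -0.47 and 0.17 for brain stem (3 genes tested), 0.54 and 0.07 for cortex and -0.01 and 0.06 for neurons. The part these markers have in the fold changes of the clusters was not tested. The estimated counts of Sgo1 itself were 0, 7 and 0 in WT and 4, 2 and 0 in Sgo1-/+, too low to check the labels.

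The 3 cluster totals did not separate the genotypes. The normalized count of the gamma row, Pcdhga3, in the WT libraries was 5785, 7439 and 8734, in replicate order, and 8338, 8329 and 8218 in the Sgo1-/+ libraries. All 3 Sgo1-/+ values lay between the second and the highest WT value, and WT replicate 1 was lowest. The group means were 7319 ± 1478 in WT and 8295 ± 67.2 in Sgo1-/+ (SD, n = 3 each). The log2 fold change of Sgo1-/+ over WT was 0.18 (SE 0.17, adjusted p = 1.00 by edgeR's quasi-likelihood test), and 0.04 (SE 0.11) without WT replicate 1. The gamma proteins are known for their roles in neuronal survival and dendrite self-avoidance.

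The alpha row, Pcdha10, had normalized counts of 1949, 1831 and 2763 in WT and 2118, 2421 and 2334 in Sgo1-/+. The highest and the lowest library were both WT. Its mean was 2181 ± 507 in WT and 2291 ± 156 in Sgo1-/+ (SD, n = 3 each). This gave a log2 fold change of 0.07 (SE 0.18, adjusted p = 1.00 by edgeR), and of -0.00 without WT replicate 1. The alpha proteins are known for their part in the spread of serotonergic axons.

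The 22 beta genes together summed to 2043, 2681 and 3066 in WT and 2964, 2749 and 2877 in Sgo1-/+. WT replicate 1 again held the lowest sum, 71.2% of the mean of the other 5 libraries, against 70.4% for the gamma row and 85.0% for the alpha row. Over all tested genes this value had a median of 99.1%. The log2 ratio of the group means of the beta sum was 0.14, and -0.01 once WT replicate 1 was left out. In bulk tissue, fewer cells of a type and less RNA per cell cannot be told apart.

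**Figure D1:**
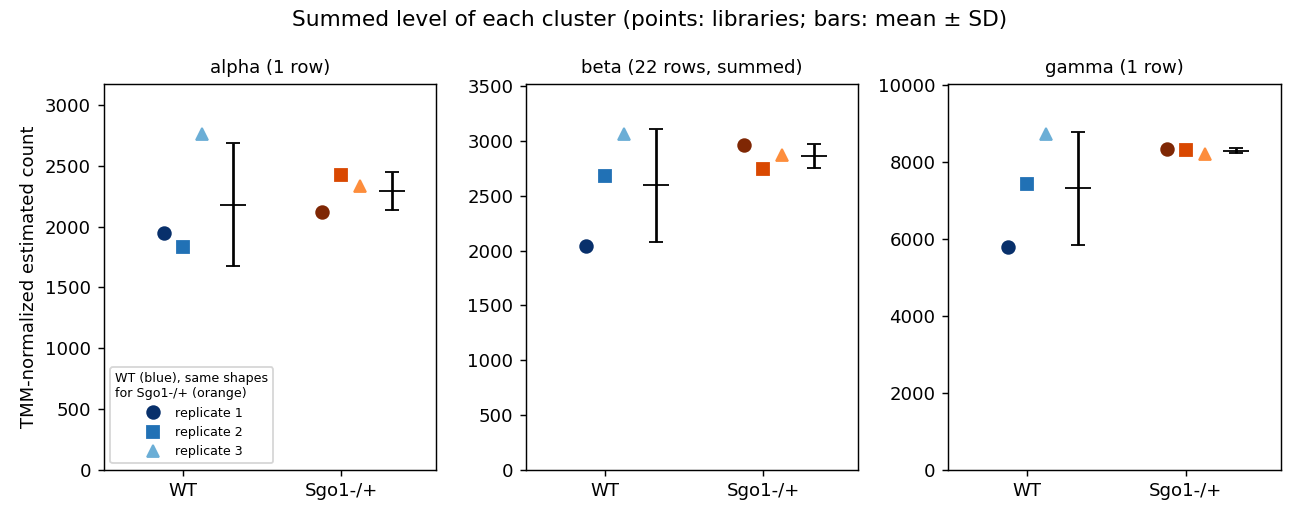
Summed TMM-normalized estimated counts of the alpha row, the 22 beta rows and the gamma row (y axes from 0), with 1 point per library and the mean ± SD of the 3 libraries of each genotype beside the points. WT replicate 1 is lowest for beta (2043) and gamma (5785), and the Sgo1-/+ libraries lie within the WT range in all 3 panels.

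The shares of the gamma row and the beta genes varied little between libraries, and that of the alpha row varied more. The gamma row took 59.2 to 62.2% of the counts of the 24 rows, the beta genes 20.4 to 22.4% and the alpha row 15.3 to 19.9%. These are shares of counts, uncorrected for length. The highest alpha share and the lowest gamma share were both in WT replicate 1.

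Within the beta cluster, 1 gene stood above the rest. Per kb of its row, Pcdhb9 had 104 to 141 normalized counts in the 6 libraries, with a mean of 127 ± 13.5 (SD over 6 libraries). Next was Pcdhb17, with 41.0 to 77.4 and a mean of 60.5, so the ranges of the 2 genes did not overlap. Below it, the ranges of every pair of neighbours in the order overlapped (19 of 20 steps), from Pcdhb14 (mean 50.2) and Pcdhb20 (50.2) down to Pcdhb4 (16.0) and Pcdhb21 (12.5). The median of the 21 genes that passed the filter on low counts was 34.5 per kb. These levels depend on the row lengths, since 6 of the 22 genes are over 10% longer in GENCODE M21 than in the deposited rows. Pcdhb14 has 8695 bases there against 3438 in its row, Pcdhb22 6609 against 3067 and Pcdhb17 4660 against 3269. The order below Pcdhb9 is therefore given for the row lengths only.

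Pcdhb9 was the most counted beta gene in all 6 libraries. Its normalized counts were 316.7, 389.9 and 430.1 in WT and 410.8, 368.8 and 416.6 in Sgo1-/+, with overlapping groups and a log2 fold change of 0.07 (SE 0.14), or -0.04 (SE 0.12) when WT replicate 1 was left out. Second place went to Pcdhb17 in 4 libraries and to Pcdhb14 in WT replicate 1 and Sgo1-/+ replicate 1. Pcdhb1, the member nearest the alpha cluster, was close to silent. It had estimated counts of 2, 8 and 0 in WT and 1.13, 1.23 and 2 in Sgo1-/+, and was the single member that the filter removed.

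**Figure D2:**
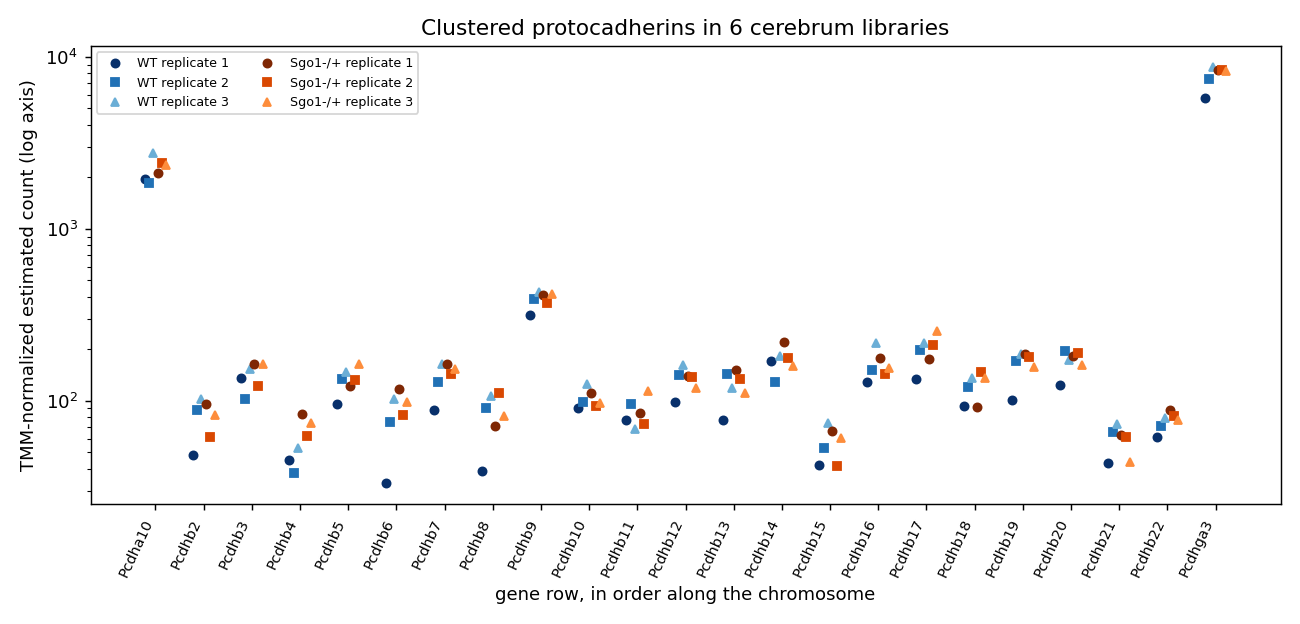
TMM-normalized estimated counts (log axis) of the 23 clustered protocadherin rows that passed the filter, in order along the chromosome, with 1 point per library (blue WT, orange Sgo1-/+). Pcdhb9 stands above the other beta genes in every library, and the points of WT replicate 1 lie low for most genes between Pcdhb2 and Pcdhb22.

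The genotypes were then compared gene by gene. None of the 23 members tested had an adjusted p under 0.05 by edgeR, as for all genes (0.0% of 16337 called), and none did by DESeq2 or limma. One member, Pcdhb4, had an unadjusted p under 0.05 by each of the 3 tools. It was higher in Sgo1-/+, where 0.808% of all tested genes were called higher at this level and 1.23% lower. A count of 1 among 23 genes is too small to set apart from that background.

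Pcdhb4 (ENSMUSG00000045689) lies at chr18:37307455-37311173 on the plus strand. Its normalized counts were 45.3, 38.0 and 52.9 in WT and 83.4, 62.2 and 74.3 in Sgo1-/+. All Sgo1-/+ libraries were above all WT libraries. Pcdhb4 was the only tested member whose groups did not overlap, which held for 3.28% of all tested genes with Sgo1-/+ higher and 3.57% with Sgo1-/+ lower. The means were 45.4 ± 7.46 and 73.3 ± 10.7 (SD, n = 3 each), and the log2 fold change came to 0.69 (SE 0.24, unadjusted p = 0.0231, adjusted p = 1.00 by edgeR). Over the 20 exact permutations of the libraries the two-sided p was 0.1, which is as small as 3 against 3 libraries allow. Its share of the beta counts, taken from the same values, was 1.79 ± 0.405% in WT and 2.55 ± 0.278% in Sgo1-/+. These groups did not overlap but almost touched, at 2.22% in WT replicate 1 and 2.26% in Sgo1-/+ replicate 2.

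The difference in Pcdhb4 did not rest on WT replicate 1. Without that library its log2 fold change was again 0.69 (SE 0.28, unadjusted p = 0.0423 by edgeR), where 1.86% of all tested genes were called higher. By the same edgeR test, the unadjusted p rose above 0.05 when WT replicate 2 (0.0726), Sgo1-/+ replicate 1 (0.0817) or Sgo1-/+ replicate 3 (0.0588) was left out.

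No other beta gene had an unadjusted p under 0.05. Of the 21 tested, 16 had a log2 fold change above 0 and 5 below, with a median of 0.16 and a range of -0.11 (Pcdhb21) to 0.69 (Pcdhb4), beside a median of -0.00 over all tested genes. The median SE was 0.24. Next to Pcdhb4 came Pcdhb6, at 0.50 (SE 0.40), and at 0.17 (SE 0.25) when WT replicate 1 was left out. Without WT replicate 1, 9 were above 0 and 12 below, and the median was -0.03, with a range of -0.30 to 0.69. Pcdhb17, at 134.1, 196.8 and 217.2 in WT and 174.6, 211.7 and 253.0 in Sgo1-/+, went from 0.22 to 0.04. Pcdhb14, at 169.8, 128.2 and 181.9 in WT and 220.3, 177.1 and 158.6 in Sgo1-/+, was at 0.21, and at 0.26 in the fit that left out WT replicate 1. Pcdhb15, the lowest of those tested by mean count, had 42.2, 53.3 and 73.8 in WT and 67.0, 41.6 and 60.4 in Sgo1-/+ and a log2 fold change of -0.01, or -0.18 when WT replicate 1 was left out.

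**Figure D3:**
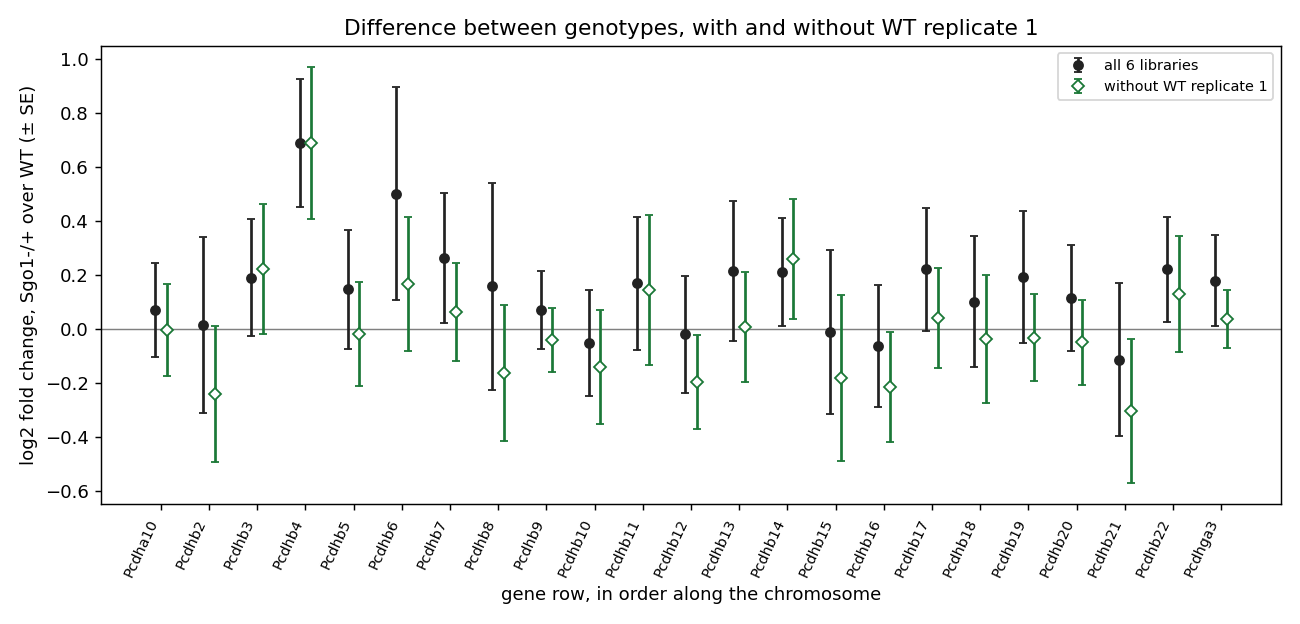
Log2 fold change of Sgo1-/+ over WT with its SE for the 23 tested rows, from all 6 libraries (black) and without WT replicate 1 (green). Pcdhb4 stays at 0.69 in both, whereas the median of the 21 beta genes is 0.16 in the first and -0.03 in the second.

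WT replicate 1 was the lowest of the 6 libraries for 15 of the 21 beta genes tested, against 30.2% of all tested genes, and the highest for 0. For 14 of them it was also under 80% of the mean of the other libraries, against 22.3% of all tested genes. With total counts in place of TMM it was lowest for 13 of 21, against 22.1% of all genes. The depth of the shortfall differed between genes. Pcdhb6 had 33.1 in WT replicate 1 and 75.3 to 117.2 in the other libraries, and Pcdhb8 had 38.9 against 71.3 to 110.2. Pcdhb6 and Pcdhb8 were chosen after their values were seen. Pcdhb14 and Pcdhb3 in WT replicate 1 were instead at 98.0% and 96.9% of the mean of the others, and the median over the 21 genes was 70.5%. The low cortex markers and high hindbrain markers given above were found in the same library, and their part in these values was not tested.

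The beta genes varied more among the WT libraries, which include replicate 1, than among the Sgo1-/+ libraries. Their median coefficient of variation (CV) was 23.7% for WT and 15.4% for Sgo1-/+. At the Sgo1-/+ counts, counting alone would give a median of 8.75%. Over all tested genes the medians were 18.9% and 11.8%. The gamma row had a CV of 20.2% in WT and 0.81% in Sgo1-/+, where counting alone would give 1.10%.

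Other genes along the same stretch of chromosome 18 lay both above and below in WT replicate 1. The log2 ratio of WT replicate 1 to the mean of the other libraries had a median of -0.50 over the 23 members and of 0.09 over the 18 other tested rows from Ndufa2 to Pcdh1. Of the 17 listed neighbours, 9 were highest and 3 lowest in WT replicate 1. Zmat2, 1 of the 3 that were lowest there, had 1369, 1851 and 1765 in WT and 1839, 1690 and 1936 in Sgo1-/+. Ik, a splicing factor, had 1714, 1642 and 1567 in WT and 1527, 1661 and 1513 in Sgo1-/+. Hars, the histidyl-tRNA synthetase, had 966.8, 965.8 and 874.6 in WT and 899.4, 969.6 and 888.2 in Sgo1-/+, with overlapping groups. The median log2 fold change of the 17 neighbours was -0.08 and 6 were above 0, and the median was -0.01 when WT replicate 1 was left out. One of them, Arap3, a GTPase-activating protein, had an unadjusted p under 0.05, at 118.2, 91.7 and 115.1 in WT and 151.2, 147.1 and 150.3 in Sgo1-/+ (log2 fold change 0.47, SE 0.17, adjusted p = 1.00 by edgeR, and 0.54 when WT replicate 1 was left out). At this level 0.808% of all tested genes were called higher and 1.23% lower. The Arap3 groups did not overlap, which held for 3.28% of all tested genes with Sgo1-/+ higher. A count of 1 among 17 neighbours is too small to set apart from that background.

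**Figure D4:**
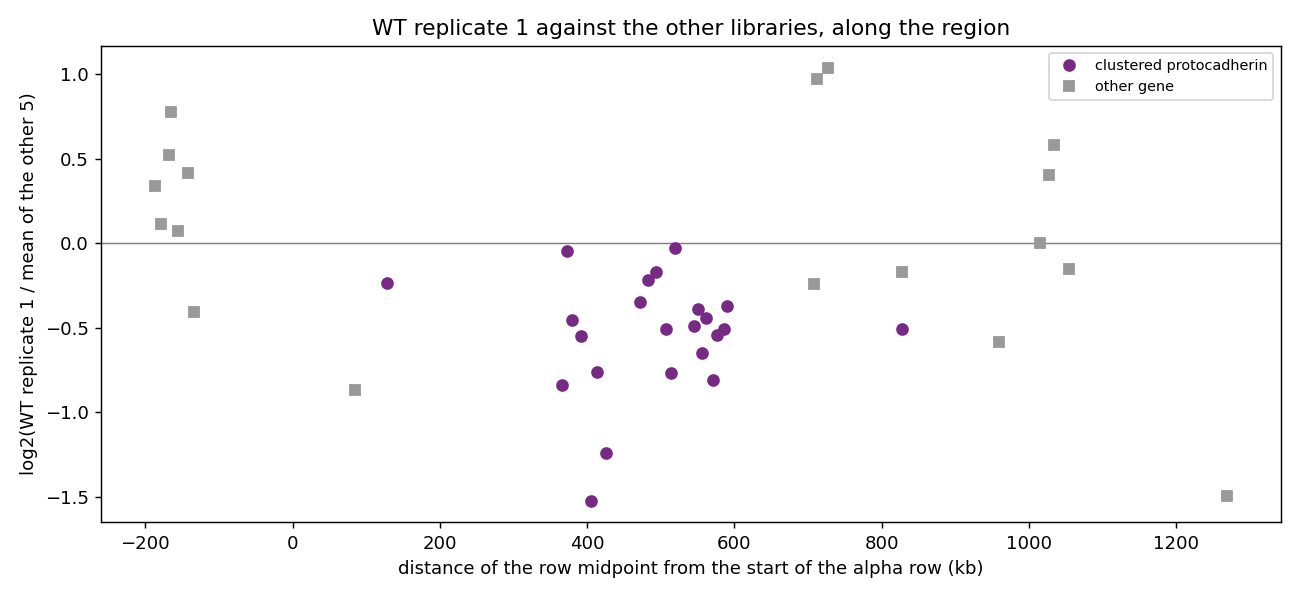
Log2 ratio of WT replicate 1 to the mean of the other 5 libraries for each tested row, by distance of the row midpoint from the start of the alpha row (kb). The 23 clustered protocadherin rows (purple) all lie below 0, with a median of -0.50, while the 18 other rows (grey) lie on both sides of 0.

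The non-clustered protocadherins, which lie outside the clusters, were also low in WT replicate 1. Of 12 genes, 9 were lowest there, and the sum was 5302 against 9247 to 10838 in the other libraries. Pcdh10 had 1053, 2946 and 3260 in WT and 2725, 2938 and 2106 in Sgo1-/+. Pcdh1 had 833.2, 2063 and 2272 in WT and 2083, 2690 and 2611 in Sgo1-/+, whereas Pcdh9, at 1119, 855.5 and 1139 in WT, was not low in replicate 1. None of the 11 tested had an unadjusted p under 0.05, and their median log2 fold change was 0.13, and -0.06 when WT replicate 1 was left out.

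Partners of the protocadherin proteins were also low in WT replicate 1. They include the kinases Ptk2 and Ptk2b, which bind the cytoplasmic tails, and the WAVE complex, which drives actin assembly. Of 17 partners, 13 were lowest in WT replicate 1, and Ptk2b was at 360.9 there against 6114 to 7251 elsewhere. Nckap1, a WAVE complex subunit, had 4779, 6592 and 8138 in WT and 7504, 7718 and 7487 in Sgo1-/+. The GTPase Rac1 had 3408, 3570 and 3682 in WT and 4128, 3946 and 3804 in Sgo1-/+, with groups that did not overlap (exact permutation p = 0.1, adjusted p = 1.00 by edgeR). The same held for 3.28% of all tested genes, with Sgo1-/+ higher. The median log2 fold change was 0.16, and -0.03 without WT replicate 1, and no partner had an unadjusted p under 0.05.

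Genes of the machinery that regulates the clusters were, as lists, more even between libraries, but single members were not all even. In WT replicate 1, 4 of 15 cohesin and CTCF genes were lowest and 3 highest. Of 11 chromatin regulators, 2 were lowest there and 4 highest. Hdac8 in WT replicate 1 was at 171% and Tet3 at 73.3% of the mean of the other libraries, both chosen after their values were seen. Of 15 cohesin and CTCF genes 13 were tested, and none had an unadjusted p under 0.05. Their median log2 fold change was -0.04, and -0.06 without WT replicate 1, and their sum in WT replicate 1 was 11519, within the 11274 to 12100 of the other libraries. Rad21, the cohesin subunit that closes the ring, had 2060, 1696 and 1740 in WT and 1809, 1665 and 1892 in Sgo1-/+, and its log2 fold change was -0.03 (SE 0.12), or 0.06 when WT replicate 1 was left out. Smc1a, another ring subunit, had 1397, 1228 and 1336 in WT and 1365, 1231 and 1266 in Sgo1-/+. Of 11 chromatin regulators 10 were tested, with a median log2 fold change of -0.01, or 0.00 when WT replicate 1 was left out, and no unadjusted p under 0.05. Their sum was 6441 in WT replicate 1, just below the 6445 to 7188 of the other libraries. Dnmt3a, a DNA methyltransferase, had 1137, 1181 and 1085 in WT and 1031, 1154 and 1079 in Sgo1-/+. The groups overlapped for Rad21, Smc1a and Dnmt3a.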

How the data were processed

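Total RNA from tissue given as cerebrum was sequenced as paired-end reads, and the authors aligned them to mm10 with Strand NGS. BWA and edgeR are named in the submitters' processing notes, without version or role. The authors deposited an estimated count per gene and library, not normalized, in which reads shared between genes are apportioned. Columns of the authors' normalized values and fold changes were not used. The members and gene lists were chosen with earlier results of these data known.

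Estimated counts were rounded and tested with edgeR 4.0.16 in R 4.3.3 (quasi-likelihood test, TMM, default filter on low counts, Benjamini-Hochberg adjustment over 16337 genes, threshold 0.05, common biological CV 25.9%), without covariates. For normalized counts, each estimated count was divided by the library's TMM scale, relative to the mean of the 6 libraries. Single members were compared by exact two-sided permutation over the 20 groupings of libraries, of which 0.1 is the smallest p. Replicates are separate mice, with 1 library each. Alternatives used DESeq2 1.42.0 and limma 3.58.1, and the fits were first run on simulated counts with known changes. No simulated library stood apart as WT replicate 1 does, so that run does not show how the fits behave on these data. A count of 0 allows up to 3 counts. That floor covers counting error only, since no molecular identifiers were used and reads may be copies of 1 molecule.

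Members named were Pcdha10, Pcdhga3, the 3 beta genes highest and the 1 lowest by mean count of those that passed the filter, and any with an unadjusted p under 0.05 or groups that did not overlap. From each list, genes with an unadjusted p under 0.05 and genes among the 4 highest by mean count were named. The rule also covered single C-type, alpha and gamma isoforms, which have no rows of their own here. Of the lists not described in the report, the median log2 fold changes with all libraries, and then without WT replicate 1, were -0.86 and 0.48 for serotonin neurons, -1.28 and -1.71 for olfactory bulb, 0.38 and 0.27 for hippocampus, -0.17 and 0.70 for choroid plexus, 0.25 and 0.75 for oligodendrocytes, and -0.06 and 0.07 for astrocytes, so that the sign turned for serotonin neurons, choroid plexus and astrocytes. Shared stretches of 50 bases were counted in GENCODE M21 transcripts.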

Additional observations from a re-analysis of the deposited data

How the results depend on the processing

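Among the 14 alternatives, the number of clustered protocadherins with an adjusted p under 0.05 stayed at 0. Over all genes, DESeq2's Wald test called 3 and the fits leaving out 1 library 0 to 1 (1 without Sgo1-/+ replicate 2). The number of members with an unadjusted p under 0.05 was 1 in each alternative that kept all libraries, and 0 to 1 when 1 library was left out. The median log2 fold change of the beta genes was 0.11 to 0.17 with all libraries and -0.03 to 0.25 with 1 left out (lowest without WT replicate 1, highest without WT replicate 3). The log2 ratio of group means with 1 library left out was -0.04 to 0.28 for alpha, -0.01 to 0.28 for the beta sum, 0.04 to 0.33 for gamma and 0.02 to 0.31 for all 24 rows. The log2 fold change of Pcdha10 turned to -0.0030 without WT replicate 1 and -0.0400 without WT replicate 2, that of Pcdhb9 to -0.0403 without WT replicate 1, and that of Pcdhb15 to 0.23 without WT replicate 3 and 0.16 without Sgo1-/+ replicate 2. With 1 library left out these 3 ranged from -0.0400 to 0.28, from -0.0403 to 0.17 and from -0.18 to 0.23. The cause was not tested. That of Pcdhb4 was 0.58 to 0.81. Whether the replicate numbers pair the samples is not known. Same-numbered WT and Sgo1-/+ libraries deviated from their group means with correlations of -0.15, 0.01 and -0.21, and differently numbered ones with -0.22 to 0.29. With 3 libraries per mean, and WT replicate 1 among them, these values cannot decide on pairing. With the replicate block, 1 member had an unadjusted p under 0.05 and the beta median was 0.16. The beta genes had estimated counts of 32.8 to 424 where they passed the filter. Their median CV from counting alone, computed from the Sgo1-/+ counts only, was 8.75%. The observed median was 15.4% in Sgo1-/+ and 23.7% in WT, which includes replicate 1. For Pcdhb7, Pcdhb10, Pcdhb12 and Pcdhb22 the CV in Sgo1-/+ was below that from counting alone, and for the other tested beta genes above it. With 3 mice per group and a median SE of 0.24, differences of that size were not detectable. The smallest detectable difference was not computed, and even Pcdhb4, at 0.69 with all libraries, had no adjusted p under 0.05.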
